A study of Mus musculus with 8 samples.

Results

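Cholesterol genes were examined as a set of 31, given by name: 20 that make sterols and isoprenoids, 4 that control their transcription (the SREBP system), 4 that move or store cholesterol inside the cell, and 3 that export it or turn over its receptor. All 31 were found on the arrays through the RefSeq accessions of their probes, among 26460 named genes and unnamed transcripts tested, and all 31 were well above background on all 8 arrays. The cells were 3T3-L1, a mouse preadipocyte line that becomes fat cells after a hormone mix. Unmodified cells (WT) were compared with cells stably carrying slincRAD-shRNA-8 (sh8), a hairpin RNA directed at the long noncoding RNA slincRAD. Both lines were grown in 10% newborn calf serum and sampled 2 days before confluence (day -2), at confluence (day 0), and at days +2 and +4, after induction from day 0 with insulin (167 nM), dexamethasone (1 µM) and isobutylmethylxanthine (0.5 mM). There was 1 array for each line on each day. A line with a control hairpin and the level of slincRAD were not analysed here, so the line labels were not checked against the target, and the labels do not say whether sh8 is 1 clone.

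Animal cells build cholesterol from acetyl-CoA through mevalonate and farnesyl diphosphate to squalene, which is closed into lanosterol and trimmed to cholesterol. SREBP-2, the product of Srebf2, is held in the endoplasmic reticulum with its escort Scap by the Insig proteins while sterols are plentiful, and switches on most genes of this route when they are scarce. Oxysterols act in the other direction through LXR receptors, which switch on the exporters Abca1 and Abcg1 and the receptor-degrading ligase Mylip. Fat cells hold a large pool of free cholesterol in their lipid droplets.

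The bases before the start sites are shown for 5 genes that differ in role and in direction: Hmgcs1 and Mvk from the early pathway, Msmo1 from the late pathway, and Insig1 and Insig2, the retention genes that went opposite ways between the lines. The sequences are RefSeq's for GRCm38.p6 and cover the 250 bases before the start, 5′ to 3′ on the gene's strand. They lie at chr13:119690101-119690350 on the plus strand, chr5:114444019-114444268 (plus), chr8:64733579-64733828 (minus), chr5:28071162-28071411 (plus) and chr1:121332590-121332839 (minus). Capitals mark the letters CCAAT (the NF-Y box), TCACNCCAC (a form of the sterol regulatory element) or CACGTG (the E-box), read on both strands, so that ATTGG is CCAAT on the opposite strand. For Insig2, the window with the most matches among its 3 is shown.
Hmgcs1: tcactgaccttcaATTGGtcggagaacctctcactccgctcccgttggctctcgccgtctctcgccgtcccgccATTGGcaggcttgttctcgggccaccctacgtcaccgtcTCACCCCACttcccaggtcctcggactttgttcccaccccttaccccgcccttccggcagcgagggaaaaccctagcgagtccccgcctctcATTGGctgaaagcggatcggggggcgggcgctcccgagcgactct
Mvk: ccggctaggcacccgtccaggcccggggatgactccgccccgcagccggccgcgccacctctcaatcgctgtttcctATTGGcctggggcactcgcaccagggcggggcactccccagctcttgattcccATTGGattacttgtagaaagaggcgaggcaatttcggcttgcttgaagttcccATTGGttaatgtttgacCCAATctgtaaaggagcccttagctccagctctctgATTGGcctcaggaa
Msmo1: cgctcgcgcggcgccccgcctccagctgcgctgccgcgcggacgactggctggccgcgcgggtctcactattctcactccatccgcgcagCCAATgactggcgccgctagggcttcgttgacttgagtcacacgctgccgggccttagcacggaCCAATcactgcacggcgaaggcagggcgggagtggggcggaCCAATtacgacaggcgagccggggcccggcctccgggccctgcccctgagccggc
Insig1: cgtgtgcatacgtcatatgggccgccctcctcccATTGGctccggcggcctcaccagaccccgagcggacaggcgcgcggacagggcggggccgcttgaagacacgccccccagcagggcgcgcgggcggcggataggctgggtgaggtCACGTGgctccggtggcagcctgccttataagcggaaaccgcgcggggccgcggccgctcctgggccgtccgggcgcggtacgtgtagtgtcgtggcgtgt
Insig2: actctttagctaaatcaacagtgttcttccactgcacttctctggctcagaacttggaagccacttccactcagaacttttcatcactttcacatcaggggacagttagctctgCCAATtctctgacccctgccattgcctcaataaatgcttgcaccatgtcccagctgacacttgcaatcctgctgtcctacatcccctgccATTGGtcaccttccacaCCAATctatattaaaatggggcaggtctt
Mvk held 5 CCAAT boxes, Hmgcs1, Msmo1 and this Insig2 window held 3 each, and Insig1 held 1 together with an E-box. Hmgcs1 held the sterol element, from base 137 to base 129 before the start.

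A window was found for 25 of the 31 genes. CCAAT was in 21 of the 25 and in 37.5% of all 27025 genes with a window. By role it was in 15 of 17 synthesis genes (all but Acat2 and Aacs), 3 of 4 SREBP control genes, 2 of 2 trafficking genes and 1 of 2 efflux genes. Dhcr7, Pmvk and Insig2 had more than 1 window and held it in 1 of them. TCACNCCAC was in 1 of the 25 genes (Hmgcs1) and in 1.22% of all genes. CACGTG was in 6 of the 25 (Hsd17b7, Sc5d, Dhcr7, Scap, Insig1 and Abca1) and in 6.86% of all genes. A direct repeat of AGGTCA with any 4 bases between, which LXR can bind, was in none of the 25 and in 0.0148% of all genes. None of these letters overlapped another motif in the sequences shown. A match describes the letters only.

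Values are log2 intensities from which the 75th percentile of the array was subtracted, and they compare arrays for 1 probe, not probes with each other. The 75th percentile of intensity ran from 760 to 1239 and 64.9% to 81.7% of probes were well above background. The arrays of days -2 and 0 lay on 1 slide and those of days +2 and +4 on another, with WT at positions 1 and 2 and sh8 at positions 3 and 4 of both. Position and line cannot be told apart, nor can slide and the step from day 0 to day +2. Preadipocyte and fibroblast markers had a median level of 5.26 to 5.99 on the 8 arrays. Lung epithelium markers (11 of 12 measured) had a median level of -6.04 to -5.47 on the first slide and of -0.38 to 0.57 on the second, in both lines, and macrophage and leukocyte markers (13 of 14 measured) of -3.64 to -2.96 and -2.58 to -2.09. On the second slide, all 11 and all 13 were well above background on each array. Fewer cells of a type and less RNA per cell cannot be told apart. With 1 array per line and day, p-values measure how far a difference varied from day to day or from line to line, which may be technical.

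The first comparison was sh8 with WT over the 4 days. Of the 20 sterol synthesis genes 15 were lower in sh8, as were Insig1 and 3 of 4 trafficking genes, whereas Insig2 was higher. In limma (lmFit and eBayes over all features, day as a factor, Benjamini-Hochberg adjusted p under 0.05), 19 of the 31 genes were called lower and 1 higher, against 10.3% of all features called lower and 16.8% called higher. By role, 0 of 20 synthesis genes were higher, 1 of 4 SREBP control genes was lower and 1 higher, 3 of 4 trafficking genes were lower, and 0 of 3 efflux genes were called (also 0 of 3 at an unadjusted p under 0.05). The median difference of the synthesis genes was -0.85, a 1.80-fold lower level, and the median of all features was 0.13. With quantile scaling the median of all features was 0.02, and the share of lower among all calls was 49.3% in place of 38.0%, while 17 of the 31 genes were called lower and 1 higher.

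**Figure D1:**
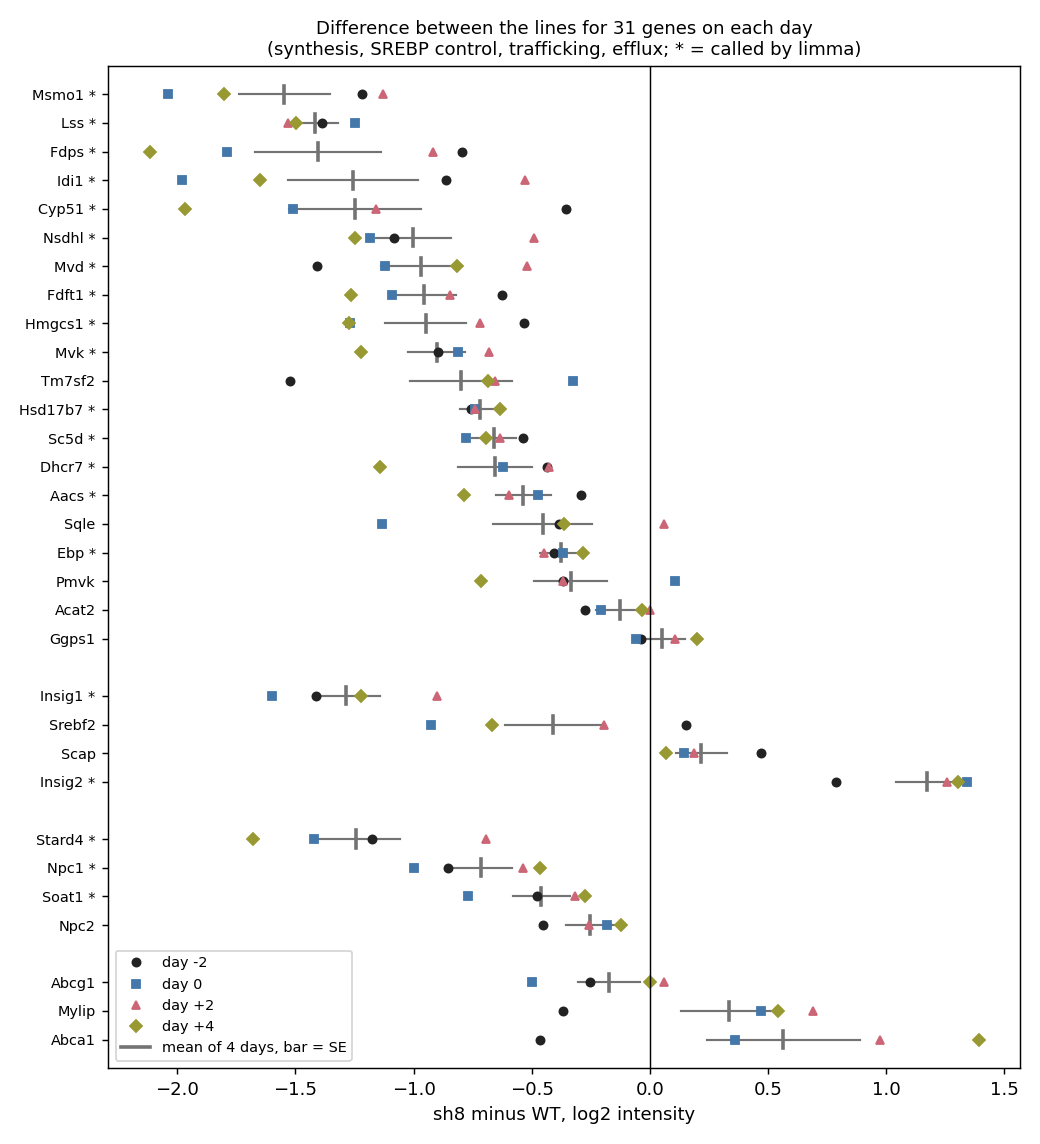
Difference between sh8 and WT (log2 intensity) for each of the 31 genes, 1 symbol per day, with the mean of the 4 days and its SE from limma in grey; an asterisk marks genes called at an adjusted p under 0.05. In the synthesis block 16 of 20 genes have all 4 symbols left of 0; Insig2 has all 4 to the right.

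The size varied along the route. The largest synthesis difference was that of Msmo1, the oxidase that removes methyl groups at carbon 4 of the sterol ring. Msmo1 measured 4.77, 3.49, 3.72 and 3.74 in WT at days -2, 0, +2 and +4 and 3.55, 1.45, 2.59 and 1.93 in sh8. Only the sh8 array of day -2 reached into the WT range, and sh8 was lower on each day, by -1.22, -2.04, -1.13 and -1.80. The fitted difference was -1.55 ± 0.19 (SE, 4 pairs of arrays), 2.92-fold, with an adjusted p = 0.0138 in limma. Lss, the cyclase that forms lanosterol, measured -1.73, -3.30, -2.75 and -3.01 in WT and -3.12, -4.55, -4.28 and -4.51 in sh8. Only sh8 at day -2 lay in the WT range, and the daily differences kept to between -1.53 and -1.25, with a fit of -1.42 ± 0.10 (adjusted p = 0.00851). Fdps, which makes farnesyl diphosphate for sterols and for protein prenylation, measured 4.29, 2.57, 2.72 and 2.55 in WT and 3.50, 0.78, 1.81 and 0.43 in sh8. The groups overlapped through sh8 at day -2, and the daily differences ran from -0.80 at day -2 to -2.12 at day +4 (fit -1.40 ± 0.27, adjusted p = 0.0255).

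Of the early mevalonate genes, Hmgcs1, the synthase that opens the pathway, differed by -0.95 ± 0.17, the kinase Mvk by -0.90 ± 0.12 and the decarboxylase Mvd by -0.97 ± 0.17 (limma adjusted p = 0.0234, 0.0155 and 0.0228). Pmvk, the second kinase of the route, differed by -0.34 ± 0.16 and was not called (adjusted p = 0.163). Idi1, which isomerises isopentenyl diphosphate, differed by -1.26 ± 0.28 (adjusted p = 0.0331). Idi1 spread more from day to day than these, from -0.53 at day +2 to -1.98 at day 0. Aacs, which activates acetoacetate for lipid synthesis, measured 2.42, 1.62, 2.02 and 2.16 in WT and 2.13, 1.15, 1.42 and 1.37 in sh8 (fit -0.54 ± 0.12, adjusted p = 0.0324). Of its sh8 arrays only that of day -2 lay in the WT range. Acat2, the thiolase at the entry, differed by -0.13 ± 0.10 and was not called (adjusted p = 0.360).

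At the squalene step, Fdft1, the squalene synthase, differed by -0.96 ± 0.14 (adjusted p = 0.0166). A dimmer second Fdft1 probe, well above background on 6 arrays, went the other way by 0.78 to 1.18 on the 4 days, and with the mean of both probes Fdft1 differed by -0.02 and was not called (adjusted p = 0.878 in limma). Sqle, the epoxidase that follows, differed by -0.45 ± 0.21 and was not called (adjusted p = 0.164), with -1.13 at day 0 and 0.06 at day +2. The lanosterol demethylase Cyp51 differed by -1.25 ± 0.28 and the keto-reductase Hsd17b7 by -0.72 ± 0.09 (limma adjusted p = 0.0341 and 0.0134), and the sterol dehydrogenase Nsdhl was 2-fold lower (log2 SE 0.16, adjusted p = 0.0194). Cyp51 moved from -0.36 at day -2 to -1.97 at day +4, whereas Hsd17b7 stayed between -0.76 and -0.64.

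In the last steps, the desaturase Sc5d differed by -0.66 ± 0.09 (adjusted p = 0.0161). Dhcr7, which completes cholesterol, measured -2.28, -3.56, -3.13 and -2.89 in WT and -2.72, -4.18, -3.55 and -4.03 in sh8, a fit of -0.66 ± 0.16 (adjusted p = 0.0391). The sh8 arrays of days -2 and +2 lay in the WT range, and the largest daily difference was -1.14, at day +4. Ebp, the sterol isomerase, measured 4.21, 4.38, 4.12 and 4.09 in WT and 3.81, 4.01, 3.67 and 3.81 in sh8. All 4 sh8 arrays lay below all 4 WT arrays, although the difference was the smallest among the called synthesis genes (-0.37 ± 0.09, 1.30-fold, adjusted p = 0.0379). The other sterol reductase, Tm7sf2, also had no overlap and missed the threshold at -0.80 ± 0.22 (adjusted p = 0.0519), with -1.52 at day -2 and -0.33 to -0.68 on the other days. Ggps1, which leads to geranylgeranyl groups for proteins and not to sterols, differed by 0.05 ± 0.10 (adjusted p = 0.696). Its dimmer second probe differed by -0.41.

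Among the 31 genes, 21 were lower in sh8 on all 4 days (16 of 20 synthesis genes), against 20.4% of all features, and 2 (Insig2 and Scap) were higher on all 4 days, against 32.3%. All 4 sh8 arrays lay below all 4 WT arrays for 3 genes (Tm7sf2, Ebp and Npc1), against 7.09% of all features. The other called synthesis genes overlapped between the lines. WT at day -2 was the highest of the 8 arrays for 16 of 20 synthesis genes and sh8 at day 0 the lowest for 13. Of 16 fatty acid synthesis genes these counts were 4 and 6, and the share of all features was not counted. A difference of at least 2-fold on a single day, which has no test, was reached downward in sh8 by 7 of the 31 genes at day -2, 12 at day 0, 3 at day +2 and 12 at day +4. The shares of all features were 4.08, 4.11, 5.42 and 5.17% on those days. Of the synthesis genes alone these were 5, 10, 3 and 10 of 20, with median differences of -0.58, -0.95, -0.61 and -0.98.

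Calls were lost when a day was left out, fewest without day -2. With day 0, day +2 or day +4 left out, 0 of the 31 genes were called in limma (20 or 21 lower and 1 higher at an unadjusted p under 0.05). Of all 26460 features 9284, 9444 and 8651 had such a p in either direction. By adjusted p, 31 of all features were called lower and 48 higher without day 0, and 0 and 0 without day +2 or day +4. With day -2 left out 14 of the 20 calls stayed. There 13 of the 31 were called lower and 2 higher, beside 1754 and 2452 of all features. All 20 gene-level calls were lost on the first slide alone, where 0 of all features passed. There 17 of the 31 genes were lower and 1 higher at an unadjusted p under 0.05, beside 8389 of all features in either direction. On that slide the median synthesis difference was -0.86 and all 20 synthesis genes were lower in sh8 by the mean of the 2 days. The second slide alone gave -0.74, with 7 of the 31 genes called lower and 2 higher, beside 1901 and 3263 of all 26460 features. With slide in place of day in the model, 3 of the 31 were called lower (Insig1, Npc1 and Soat1) and 1 higher (Insig2). Of all 26460 features 1795 were then called lower and 3229 higher. This fit no longer paired the lines by day, so changes between the 2 days of a slide counted as error.

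The genes that control the pathway did not move together. Insig1, itself a target of SREBP-2, measured -1.12, -2.19, -2.98 and -2.73 in WT and -2.53, -3.79, -3.88 and -3.95 in sh8. Insig1 was lower in sh8 on each day, by -1.60 to -0.90, and only sh8 at day -2 overlapped with WT (fit -1.28 ± 0.14, 2.44-fold, adjusted p = 0.0124). Insig2, which retains SREBP in the same way but is not controlled by it, measured 2.42, 2.93, 3.14 and 3.33 in WT and 3.21, 4.27, 4.40 and 4.63 in sh8. It was higher in sh8 by 0.79, 1.34, 1.26 and 1.30 (fit 1.17 ± 0.13, 2.26-fold, adjusted p = 0.0124), with day -2 of sh8 inside the WT range. A second Insig2 probe was higher by 0.39, 1.14, 1.34 and 1.54. Srebf2 measured -0.68, -1.48, -1.40 and -1.67 in WT and -0.53, -2.41, -1.60 and -2.34 in sh8. The lines overlapped, the fit of -0.41 ± 0.21 was not called (adjusted p = 0.190), and a dimmer Srebf2 probe differed by 0.01 to 0.43 upward. Scap differed by 0.22 ± 0.11 (adjusted p = 0.185).

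**Figure D2:**
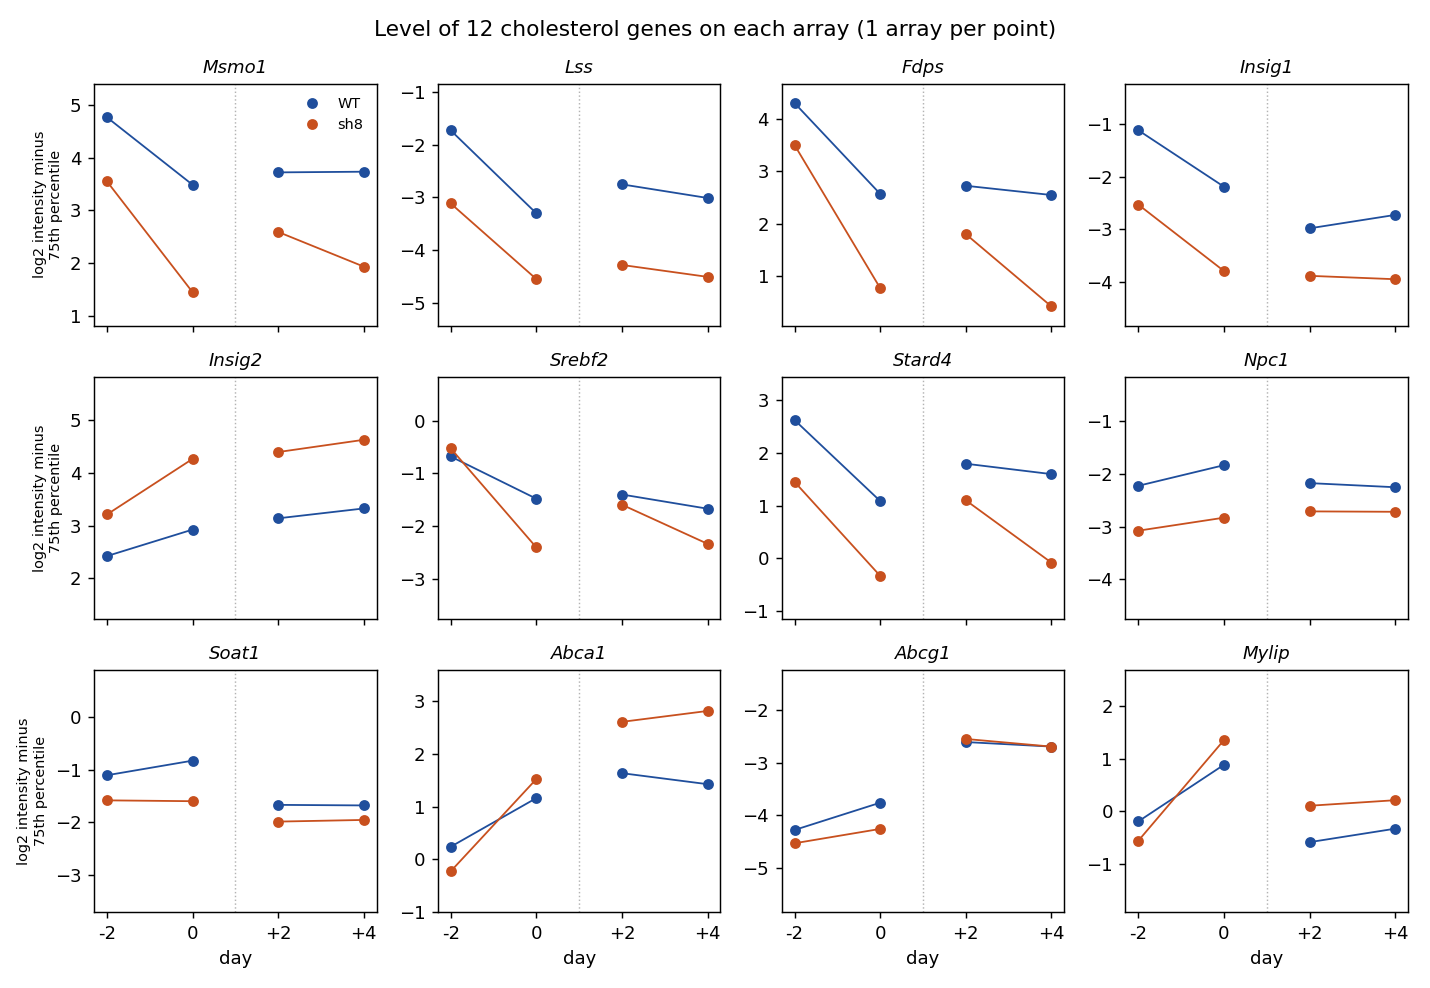
Level of 12 genes on each of the 8 arrays (log2 intensity minus the 75th percentile of the array, each panel spanning 4.6 log2 units), WT in blue and sh8 in orange, with a dotted line between the slides. Lines join days of the same slide; Insig1 is lower and Insig2 higher in sh8 on each day, and Abca1 crosses from lower at day -2 to higher from day 0.

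Of the 4 genes that handle cholesterol inside the cell, 3 were lower. Stard4, a carrier of cholesterol between membranes, measured 2.62, 1.09, 1.79 and 1.60 in WT and 1.45, -0.33, 1.1004 and -0.08 in sh8. The sh8 arrays of days -2 and +2 lay above the lowest WT array, and the fit was -1.24 ± 0.18, 2.37-fold (limma adjusted p = 0.0173). Npc1, which lets cholesterol out of lysosomes, measured -2.22, -1.83, -2.17 and -2.25 in WT and -3.08, -2.83, -2.71 and -2.72 in sh8. These did not overlap, and the fit was -0.71 ± 0.13 (adjusted p = 0.0237). Soat1, which esterifies cholesterol for storage, measured -1.11, -0.83, -1.67 and -1.68 in WT and -1.58, -1.60, -1.99 and -1.96 in sh8. The sh8 arrays of the first slide lay within the WT range, both lines were lower on the second slide, and the difference was -0.46 ± 0.12 (adjusted p = 0.0486). Npc2, the soluble partner of Npc1, differed by -0.25 ± 0.10 and was not called (adjusted p = 0.120).

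The exporters and the receptor ligase were not called between the lines. Abca1, which loads cholesterol onto lipoproteins, measured 0.24, 1.16, 1.64 and 1.43 in WT and -0.23, 1.53, 2.61 and 2.82 in sh8. The difference went from -0.47 at day -2 through 0.36 and 0.97 to 1.39 at day +4 (fit 0.57 ± 0.33, adjusted p = 0.239). Its change after induction, days +2 and +4 against days -2 and 0, was 1.23 ± 0.36, the largest of the 31, and was not called (limma adjusted p = 0.212). On the second slide alone, a limma fit with 1 residual degree of freedom, Abca1 was called higher in sh8 by 1.18 (adjusted p = 0.0396). It was among 3263 of all 26460 features called higher there. Abcg1, the exporter to larger lipoproteins, measured -4.28, -3.76, -2.61 and -2.69 in WT and -4.53, -4.26, -2.55 and -2.69 in sh8, a difference of -0.17 ± 0.13 (adjusted p = 0.348). Mylip, which sends lipoprotein receptors for degradation, measured -0.19, 0.89, -0.58 and -0.33 in WT and -0.56, 1.35, 0.11 and 0.21 in sh8 (0.33 ± 0.20, adjusted p = 0.262). In the test of a changed line difference after induction, 0 of the 31 genes and 0% of all features passed in limma. At an unadjusted p under 0.05, 0 of the 31 were lower and 3 higher, beside 2104 and 3160 of all 26460 features.

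The second comparison was day 0 with day -2, the step to confluence before any hormone, on 1 slide. Most synthesis genes had lower values at day 0 in both lines, but 0 of the 31 genes and 0% of all features passed in limma. At an unadjusted p under 0.05, 20 of the 31 were lower and 4 higher, beside 2703 and 4012 of all 26460 features. The median difference of the synthesis genes was -1.36 (WT -1.37, sh8 -1.44) and that of all features 0.08. That of 16 fatty acid synthesis genes was also below 0, at -0.40 (WT -0.39, sh8 -0.40). Of these, 8 were lower and 1 higher at an unadjusted p under 0.05 in limma, beside 17 and 0 of the 20 sterol synthesis genes. A level at least 2-fold lower in both lines was seen for 13 of the 31 genes, 11 of them synthesis genes, against 2.6% of all features. Cyp51 differed by -2.83 ± 0.39, Idi1 by -2.52 ± 0.39 and Fdps by -2.22 ± 0.38 (adjusted p = 0.0654, 0.0677 and 0.0715). The exceptions among the 20 were Ebp at 0.18 and Ggps1 at 0.29, both above 0 in both lines. Insig1 (-1.17), Srebf2 (-1.34) and Stard4 (-1.66) had the sign of the synthesis genes, whereas Abca1 (1.34), Mylip (1.49) and Insig2 (0.78) had the other (adjusted p from 0.0678 to 0.166). Cell division genes, 14 of 14 measured, had median levels of 2.31 in WT and 2.32 in sh8 at day -2, and of -0.77 and -0.70 at day 0. Their part in the synthesis values was not tested. With normexp background correction 19 of the 31 genes were called lower and 3 higher at this step, among 1181 lower and 2336 higher of all features.

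**Figure D3:**
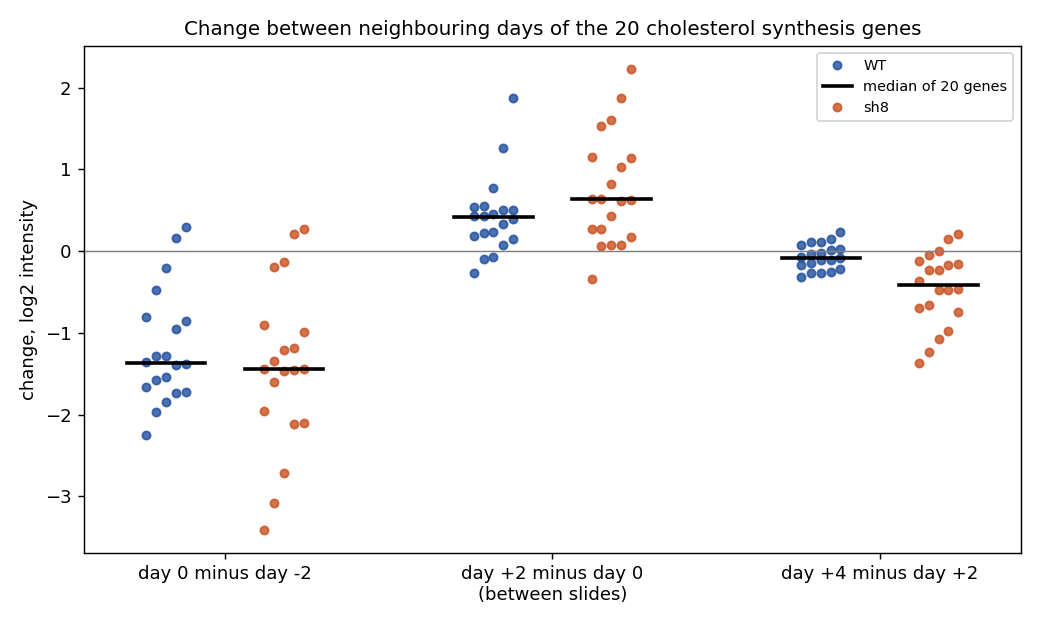
Change of each of the 20 synthesis genes between neighbouring days (log2 intensity), WT in blue and sh8 in orange, with the median as a black bar. From day -2 to day 0, 18 of 20 genes lie below 0 in each line; from day 0 to day +2, which spans the slides, 17 in WT and 19 in sh8 lie above 0; from day +2 to day +4 the medians are -0.08 and -0.41.

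The third comparison was day +2 with day 0, after 2 days of hormones and on different slides, so that hormones and slide cannot be told apart. Hsd17b7 and Abcg1 were called higher and Mylip lower in limma. That is 6.45% and 3.23% of the 31 genes, near the 9% and 2.89% of all features called. Hsd17b7 measured -0.57, -1.93, -0.06 and -0.33 in WT and -1.33, -2.67, -0.80 and -0.96 in sh8. Day +2 was above day -2 as well as day 0 in both lines, and the rise was 1.87 ± 0.12, 3.65-fold (adjusted p = 0.00642). Abcg1, with the values given above, rose by 1.43 ± 0.18, 2.70-fold (1.15 in WT and 1.71 in sh8, adjusted p = 0.0185), and Mylip fell by 1.36 ± 0.29 (adjusted p = 0.0479). Of 11 lung markers 8 were called higher at this step and 0 lower, and of 13 macrophage and leukocyte markers 7 higher and 1 lower. On each array of days -2 and 0, 4 to 6 of the 11 and 9 of the 13 were already well above background. The lung surfactant gene Sftpc and the macrophage lysozyme gene Lyz2 were so on none of these and on all 4 arrays of days +2 and +4. Aif1 (-0.69 in WT, -0.64 in sh8) and Cd14 (-0.47 and -0.26), of the macrophage list, went down from day 0 to day +2. The part of lung and macrophage markers in the Abcg1 value was not tested. With only the 4 arrays of these days in the limma fit, 0 of the 31 genes and 0 of all features passed. At an unadjusted p under 0.05, 1 of the 31 was lower and 6 higher, beside 6126 of all 26460 features in either direction. Mylip also missed the threshold with quantile scaling, with the authors' deposited values, without a filter and with the mean of all probes.

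The synthesis genes had a median change of 0.53 at this step (WT 0.41, sh8 0.63), with 0.11 for all features. Of the 31 genes 22, and of the 20 synthesis genes 17, were higher in both lines, against 43.5% of all features. Idi1 (1.501 ± 0.39) and Cyp51 (1.43 ± 0.39) had the next largest values and were not called (adjusted p = 0.0728 and 0.0806). Sc5d was level at -0.00070 ± 0.13. Insig1 continued downward by value (-0.44 ± 0.20, adjusted p = 0.213), mostly in WT (-0.79, beside -0.09 in sh8).

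The last step, day +4 against day +2, lay on the second slide. Here 0 of the 31 genes and 0% of all features passed in limma. At an unadjusted p under 0.05, 3 of the 31 were lower and 0 higher, beside 433 and 1006 of all 26460 features. A lower value in both lines was found for 17 of the 31 genes and 12 of the 20 synthesis genes, against 22.6% of all features. The median synthesis change was -0.22, made of -0.08 in WT and -0.41 in sh8. Fdps measured 2.72 and then 2.55 in WT but 1.81 and then 0.43 in sh8, and Stard4 1.79 and 1.60 in WT but 1.1004 and -0.08 in sh8. The difference of these changes between the lines was not tested, with 1 array at each point. Cell division genes had median levels of 1.59 and 1.04 in WT and of 0.59 and -1.01 in sh8 on these days, and their part was not tested.

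Other genes around the pathway were called at shares that can be set beside 10.3% lower and 16.8% higher over all features. Of 16 further genes on the synthesis side (isoprenoid branches, sterol sensing and SREBP processing), 1 was called lower in sh8 and 2 higher (6.25% and 12.5%), with a median of -0.19, and 7, 8, 13 and 13 of the 16 had lower values in sh8 on days -2, 0, +2 and +4. The lower gene was Pggt1b, a geranylgeranyl transferase subunit (-0.38), and the higher were Dhdds, which starts dolichol synthesis (0.72), and Rabggta, of Rab prenylation (0.37) (adjusted p = 0.0409, 0.0182 and 0.0414 in limma). Of 24 genes of uptake, transport and oxysterols, 5 were lower and 4 higher (20.8% and 16.7%), with a median of -0.02. Scarb1, the receptor that takes cholesterol from high-density lipoprotein, measured 2.42, 1.42, 1.73 and 1.86 in WT and 0.97, 0.23, -0.05 and -0.20 in sh8. No sh8 array reached the WT range, and the difference was -1.62 ± 0.17 (adjusted p = 0.0115). Abcg4, an exporter related to Abcg1, was higher by 1.16 ± 0.09 (adjusted p = 0.00919). Ch25h, which makes 25-hydroxycholesterol, an oxysterol that binds the Insig proteins, measured -4.08, -4.54, -6.26 and -5.14 in WT and -1.71, -2.13, -3.73 and -4.10 in sh8. It was not well above background in WT at day +2, sh8 at day +4 was just inside the WT range, and the difference was 2.09 ± 0.29 (adjusted p = 0.0156). Macrophage and leukocyte markers were also higher in sh8, 7 of 13 by the test with a median of 0.46, and their part in the Ch25h and Abca1 values was not tested. The mitochondrial sterol hydroxylase Cyp27a1 was higher by 0.73 (adjusted p = 0.0213), and the LXR genes went opposite ways, Nr1h3 by -0.47 and Nr1h2 by 0.46 (adjusted p = 0.0354 and 0.0358).

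At day +2 against day 0, where 9% of all features were called higher and 2.89% lower, 1 of the 16 synthesis-side genes was higher, Nus1, the dolichol synthesis partner of Dhdds (0.76, adjusted p = 0.0278 in limma). Of the 24 genes, 2 were higher and 4 lower. Cyp27a1 rose by 1.68, while the oxysterol dehydrogenase Hsd3b7 fell by 1.11, the lysosomal lipase Lipa by 0.71 and Nr1h3 by 0.86 (adjusted p from 0.0125 to 0.0330). The others were Gramd1a, higher, and Nceh1, lower.

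Fatty acid synthesis, which is governed by Srebf1 more than by Srebf2, was set beside the sterol genes. Of its 16 genes 2 were lower in sh8, or 12.5% beside 10.3% of all features (the acetyl-CoA carboxylase Acacb at -0.80 and the desaturase Fads1 at -0.47) and 2 higher, or 12.5% beside 16.8% (the desaturase Scd1 at 1.22 and the elongase Elovl5 at 0.44), with adjusted p from 0.0228 to 0.0410 in limma. Its median was -0.04, beside -0.85 for the 20 sterol synthesis genes. By day (-2, 0, +2 and +4) the fatty acid medians were -0.13, -0.31, 0.28 and -0.09. Of the 16 genes 9, 13, 6 and 9 had lower values in sh8 on those days. At day +2 against day 0, a step between slides, 3 of the 16 (18.8%) were called higher (Scd1 by 1.86, Elovl5 by 0.85 and Scd2 by 0.77) and 0 lower. Of the 20 sterol genes 1 (5%) was higher and 0 lower, and of all features 9% and 2.89%. Cell division genes had a median of -0.94, with 2 of 14 called lower (14.3%, beside 10.3% of all features). Fat cell markers (9 of 10 measured) had a median of -0.80, with 3 of 9 lower (33.3%). On days -2, 0, +2 and +4 the cell division medians were -0.10, -0.25, -1.16 and -2.44. Those of the fat cell markers were -0.34, -0.48, -0.66 and -1.84, and those of the sterol genes -0.58, -0.95, -0.61 and -0.98. The part of either in the sterol values was not tested.

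**Figure D4:**
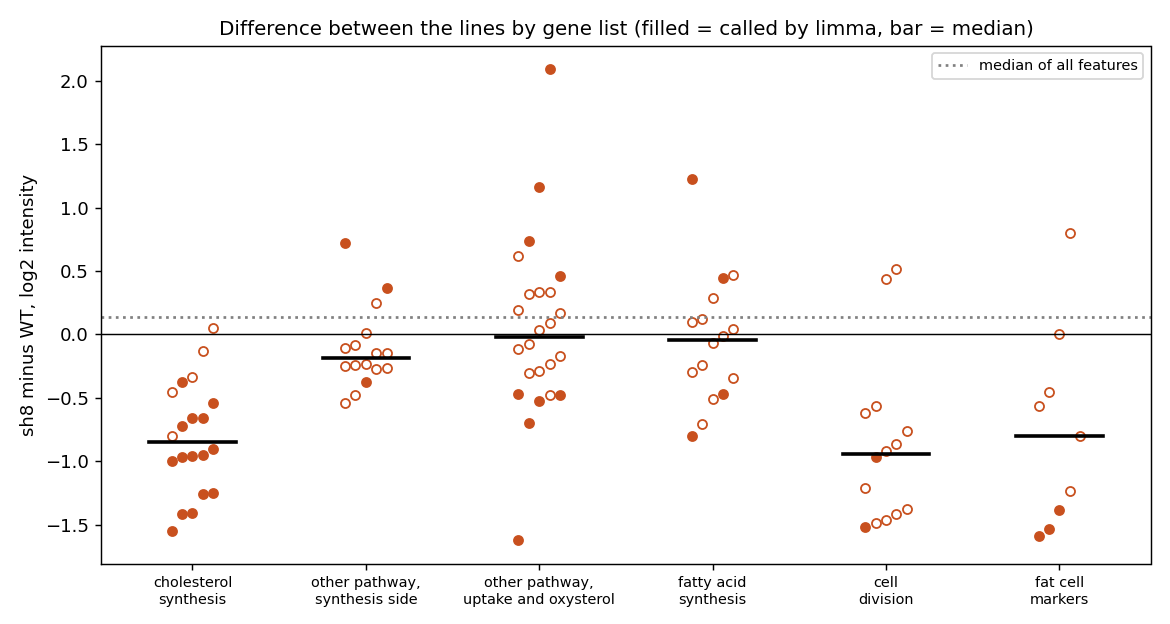
Difference between sh8 and WT in limma (log2 intensity) for each gene of 6 lists, filled where called, with each list's median as a bar and the median of all features (0.13) dotted. The cholesterol synthesis genes centre on -0.85 and the fatty acid genes on -0.04.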

How the data were processed

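RNA of 8 samples was labelled with Cy3 and hybridised to 1-colour Agilent arrays, although the series text names another maker. Per the file headers, the software was Agilent Feature Extraction 11.0.1.1, run by the authors. The deposited processed intensity is on a linear scale with no common level between arrays. The authors also deposited a log2 value table, with column medians of 6.39. Each column was closest to the scanner values of the same array (r of 0.994 to 1.00 over probes). It was on a log2 scale, in the same direction and not centred by gene. The steps behind it were not given in the sources used here.

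Control spots (1377 of 44397) were removed, the rest were averaged to 39429 probes, and 46 probes with an outlier flag were dropped. No spot was saturated (0). Symbols came from RefSeq accessions through a table of GRCm38.p6, used for names only because the headers name mm9, and 27207 probes were named. Values were log2 processed intensity minus the array's 75th percentile. A probe was kept if well above background on at least 2 arrays, and the probe with the highest mean stood for a gene (4400 genes had several). Tests used limma 3.58.1 in R 4.3.3 (data.table version 1.17.8), with day and line as terms and 3 residual degrees of freedom, or 2 with the interaction. The fit of sh8 against WT was tested on simulated data with independent errors. Such data hold no error shared by a slide, a position or a sample, so these limits were not covered. The number of arrays limits the precision.

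The genes and lists were chosen with earlier results of these data known. Arrays were described singly for genes called with the largest and smallest differences in each role, up to 6 a role, and for Srebf2, Insig1, Insig2, Abca1 and Abcg1. From the other pathway lists and the fatty acid list, up to 4 called genes with the lowest p in each comparison were named. Nr1h2, Nr1h3 between the lines, Gramd1a and Nceh1 at day +2, Sftpc, Lyz2 and the 5 promoters shown were chosen after values were seen. Alternatives were quantile scaling, normexp (offset 50) on the median and background signals because no mean signal column was found, the authors' table, other filters on dim probes, the mean of all probes, days left out, and slides.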

Additional observations from a re-analysis of the deposited data

Results flagged for a closer look

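Ggps1, which makes the geranylgeranyl group, was lower in sh8 on both days before induction (-0.04 and -0.06) and higher on both days after it (0.11 and 0.20), a change of 0.20 ± 0.14 (SE) that was not called by limma (adjusted p = 0.473). Its dimmer second probe, well above background on 8 arrays, did not show this switch. That probe was lower in sh8 on each day, by -0.10, -0.23, -0.66 and -0.66 at days -2, 0, +2 and +4.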

How the results depend on the processing

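None of the 20 called line differences changed sign under the alternatives run, but that of Fdft1 shrank from -0.96 to -0.02 with the mean of its probes (adjusted p = 0.878). Of the uncalled ones, Ggps1 was -0.18 with the mean of probes and -0.05 on the first slide, Abca1 -0.05 on the first slide and Abcg1 0.03 on the second. The count called lower in sh8 (19) was 16 to 20 under quantile scaling, normexp, the authors' values, no filter, the filter on all 8 arrays and the mean of probes, and the count called higher was 1. With slide in place of day 3 were lower and 1 higher, beside 1795 and 3229 of all features. On the first slide alone 0 were lower and 0 higher. The second alone gave 7 lower and 2 higher, beside 1901 and 3263 of all features. Leaving out 1 day gave 0 to 13 lower and 0 to 2 higher, the most without day -2 (1754 and 2452 of all features). Day +2 against day 0 gave 0 lower with quantile scaling, the authors' values, no filter, the mean of probes, or only the 4 arrays. It gave 0 higher in the last of these and 4 higher with normexp, beside 1505 of all 26460 features. Day 0 against day -2 gave 19 lower and 3 higher with normexp, and 17 lower and 2 higher (of 719 and 950 among 19780 features) with the filter on all 8 arrays. Over all features, sh8 against WT gave 2723 lower and 4434 higher, against 31 and 48 without day 0, 0 and 0 without day +2 or day +4 (9444 and 8651 at an unadjusted p under 0.05), and 0 and 0 on the first slide alone (8389). The cause of these changes was not tested, but fits without a day or on 1 slide use fewer arrays. The main model pairs the lines by day. The fit with slide in place of day does not, and it leaves changes between the days of a slide in the error.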
